A study of Mus musculus with 6 samples.

Results

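The *Gimap* family was followed in CD4+ T cells of the mouse spleen that carried Lrig1 on their surface and in those that did not. Its 8 members, *Gimap1*, *Gimap3*, *Gimap4*, *Gimap5*, *Gimap6*, *Gimap7*, *Gimap8* and *Gimap9*, were chosen by gene symbol out of 45777 genes listed. CD4+ T cells with the marker (CD4+Lrig1+) and without it (CD4+Lrig1-) were sorted by flow cytometry from spleens of female C57BL/6 mice aged 7 weeks. No genetic change or treatment is given for either group, and mRNA was sequenced. Lrig1 is a transmembrane protein known as a negative regulator of growth factor receptors, so the groups differ by a surface marker and not by an intervention. The labels name 6 samples, 3 in each group, while the values used here came from 4 libraries that formed 2 sets, each set with 1 CD4+Lrig1+ and 1 CD4+Lrig1- library. The methods describe the study's quantitative data in general as biologically independent, but neither they nor the labels tie each of these 4 libraries to separate mice. Without a term for the set, each p-value measures the spread between the libraries of a group. With such a term, it measures how the difference between groups varies from set to set. Either spread may then be technical.

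GIMAP proteins are GTPases of immunity-associated proteins, a family found mostly in lymphocytes, and they share a GTP-binding domain related to that of septins and dynamins. They are known for their role in lymphocyte survival. Loss of Gimap5 causes lymphopenia in mice and rats, and loss of Gimap1 depletes mature T and B cells. Several members sit on internal membranes such as the endoplasmic reticulum, the Golgi apparatus and lysosomes, and the genes lie next to each other in a cluster.

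Each library held between 44865070 and 59977951 estimated counts, and the 10 most abundant genes took 4.88% to 8.76% of them. The surface marker was reflected in its own transcript: *Lrig1* was measured at 221 CPM (counts scaled to a common library size, after TMM normalization) in CD4+Lrig1+ and 75.4 in CD4+Lrig1- cells of set 1, and at 129 and 36.7 in set 2. *Foxp3*, the lineage factor of regulatory T cells (Treg cells), was at 589 and 48.9 CPM in set 1 and at 615 and 30.7 CPM in set 2, again CD4+Lrig1+ first. All 8 T cell markers were detected, and their summed level was 4166, 4040, 5960 and 5966 CPM (CD4+Lrig1+ and CD4+Lrig1- of set 1, then of set 2). The sets stood apart. Across 16123 genes, log2 CPM correlated at 0.960 and 0.959 between the groups of one set and at 0.908 between the sets for both groups. Markers of B cells summed to 87.4, 67.1, 352 and 681 CPM in the same order, so they were higher in set 2 and, in that set, higher in CD4+Lrig1- cells. Markers of myeloid cells summed to 66.8, 62.6, 272 and 303 CPM. The part of these other cells in the values below was not tested, and in bulk samples fewer cells of a type and less RNA per cell cannot be told apart.

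The cluster lies on chromosome 6 of GRCm38, at chr6:48647186-48770851, and spans 123.666 kb from *Gimap8* to *Gimap3*. Along it the genes come in the order *Gimap8*, *Gimap9*, *Gimap4*, *Gimap6*, *Gimap7*, *Gimap1*, *Gimap5* and *Gimap3*. *Gimap6* and *Gimap3* are on the minus strand and the others are on the plus strand. The 250 bases before the start of transcription are shown for *Gimap7*, *Gimap1* and *Gimap5*, whose transcripts were higher in CD4+Lrig1+ cells within both sets, and for *Gimap4*, which was lower within both sets. The sequences are those of RefSeq on GRCm38.p6, read 5′ to 3′ on the strand of the gene, and capitals mark matches to any of 6 short motifs.
Gimap7 (chr6:48718371-48718620, plus strand): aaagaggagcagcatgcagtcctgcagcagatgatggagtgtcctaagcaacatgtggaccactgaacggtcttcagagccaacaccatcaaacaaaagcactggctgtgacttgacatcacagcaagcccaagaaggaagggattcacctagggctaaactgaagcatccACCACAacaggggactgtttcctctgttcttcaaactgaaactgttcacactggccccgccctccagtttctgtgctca
Gimap1 (chr6:48738797-48739046, plus strand): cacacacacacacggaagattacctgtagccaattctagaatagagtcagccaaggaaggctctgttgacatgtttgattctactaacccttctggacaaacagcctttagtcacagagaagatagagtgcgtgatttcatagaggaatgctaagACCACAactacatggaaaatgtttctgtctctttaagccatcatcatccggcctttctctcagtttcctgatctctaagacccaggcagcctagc
Gimap5 (chr6:48745947-48746196, plus strand): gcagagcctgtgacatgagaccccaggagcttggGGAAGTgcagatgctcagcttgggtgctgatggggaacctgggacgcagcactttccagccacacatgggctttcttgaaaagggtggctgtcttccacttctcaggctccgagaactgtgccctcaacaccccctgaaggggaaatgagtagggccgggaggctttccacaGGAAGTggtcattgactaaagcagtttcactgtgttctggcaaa
Gimap4 (chr6:48684328-48684577, plus strand): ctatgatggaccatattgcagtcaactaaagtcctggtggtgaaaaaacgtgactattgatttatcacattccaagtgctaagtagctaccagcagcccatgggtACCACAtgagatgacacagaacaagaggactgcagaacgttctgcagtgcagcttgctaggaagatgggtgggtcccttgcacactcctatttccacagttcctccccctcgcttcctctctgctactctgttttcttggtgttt

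The motifs were searched on both strands, as GGAAGT for ETS factors, TGTGGT for RUNX factors, GTAAACA for forkhead factors, CTTTGA for TCF/LEF factors, TTCNNNGAA for STAT factors and CAGGTG for E proteins. The RUNX letters were found in 3 members, *Gimap7*, *Gimap1* and *Gimap4*, each time as ACCACA, and in 14% of all 32841 promoter windows of this length. They were therefore present in members that were higher as well as in 1 that was lower. The ETS letters occurred at 2 places before *Gimap5* and at 1 place before *Gimap6*, and in 19.7% of all windows. The forkhead letters were present before *Gimap3* alone, against 3.17% of all windows, the E protein letters before *Gimap9* alone, against 17.2%, and the STAT letters before *Gimap6* and in 1 of the windows of *Gimap8*, against 7.02%. The TCF/LEF letters were found before 0 of the 8 members and in 13.8% of all windows. A match describes these letters only and does not show that a factor binds.

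*Gimap* transcripts were abundant in both groups. Summed over the 8 members, the level was 3296 CPM in CD4+Lrig1+ and 3311 CPM in CD4+Lrig1- cells of set 1, and 3502 and 3825 CPM in set 2. The group means were 3399 ± 146 and 3568 ± 363 CPM (SD, n = 2 libraries), and the groups overlapped. The family took 0.354%, 0.353%, 0.339% and 0.344% of all counts in the same order of libraries. The log2 ratio of the sums, CD4+Lrig1+ over CD4+Lrig1-, was -0.01 in set 1 and -0.13 in set 2. With 2 libraries against 2, an exact permutation test, two-sided, cannot give a p below 0.3333, so the sums were not tested.

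Levels of different members can be compared only per transcript length, in FPKM, which divides fragments by the length of the transcript and the size of the library. On that scale *Gimap3*, a close relative of *Gimap5*, was the most abundant, with a mean of 476 FPKM over the 4 libraries and rank 131 among the genes tested. *Gimap4*, which is known to speed the death of T cells after an apoptotic signal, followed with 416 FPKM, and *Gimap6*, whose product binds a protein of the autophagosome membrane, with 388 FPKM. The ranges of these 3 over the libraries overlapped, from 386 to 571, from 328 to 510 and from 289 to 495 FPKM. *Gimap1* came next with 140 FPKM and a range of 112 to 169 FPKM, below every value of the first 3. That range overlapped those of *Gimap8* and *Gimap7*, which reached 120 and 117 FPKM. In CD4+Lrig1- cells of set 1, *Gimap8* at 120 FPKM exceeded *Gimap1* at 112 FPKM. *Gimap8*, whose product carries several GTP-binding domains, had a mean of 88.0 FPKM, *Gimap9* of 78.6 FPKM and *Gimap7* of 70.0 FPKM, and their ranges overlapped. *Gimap5* was the least abundant, with 41.3 FPKM and rank 1630, and its range of 32.5 to 49.6 FPKM overlapped that of *Gimap7*. The most abundant member was thus 11.5 times as abundant as the least.

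**Figure D1:**
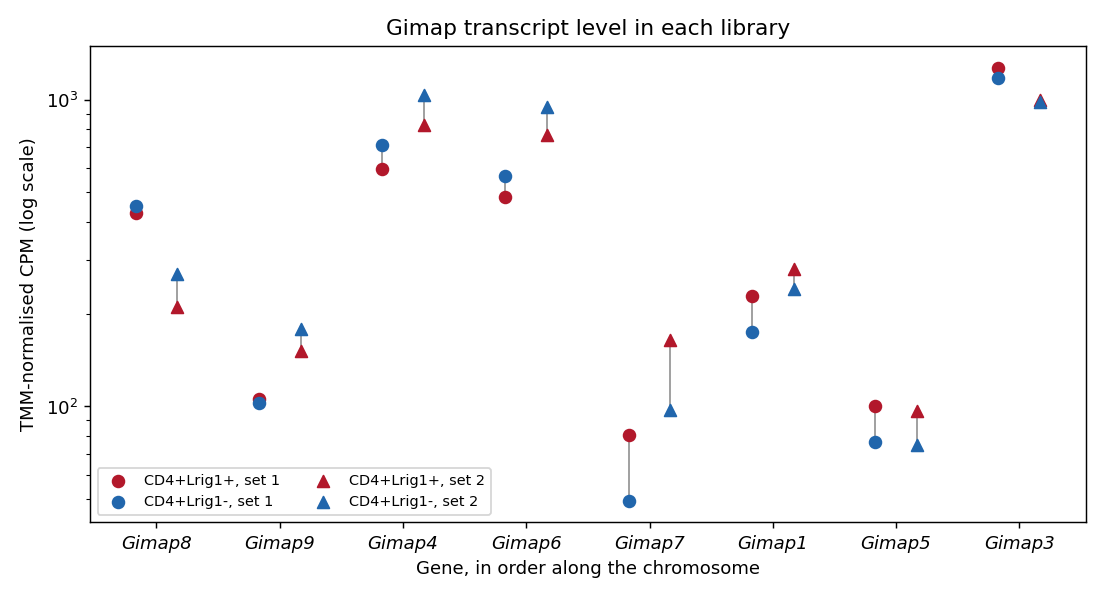
TMM-normalised CPM on a log scale for the 8 genes in chromosomal order; red marks CD4+Lrig1+ and blue CD4+Lrig1- libraries, circles set 1 and triangles set 2, with a line between the libraries of a set. The red point lies above the blue one in both sets for *Gimap7*, *Gimap1*, *Gimap5* and *Gimap3*, and below it in both sets for *Gimap8*, *Gimap4* and *Gimap6*.

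The question of the comparison was how the transcripts of CD4+ T cells with surface Lrig1 differ from those without it. Within sets, the members did not move together: 4 of the 8, *Gimap7*, *Gimap1*, *Gimap5* and *Gimap3*, were higher in CD4+Lrig1+ cells in both sets, against 36.5% of all genes tested, and 3 of the 8, *Gimap8*, *Gimap4* and *Gimap6*, were lower in both sets, against 41.3%. *Gimap9* had opposite signs. The edgeR quasi-likelihood test without a term for the set passed 0 of the 8 members at an adjusted p under 0.05, and it passed 0% of all genes in either direction. At an unadjusted p under 0.05 this test gave 0 members, and 674 genes (4.18%) higher and 227 (1.41%) lower. The DESeq2 Wald test also passed 0 members, against 1.61% of all genes as higher and 0.31% as lower, and so did edgeR's exact test, against 1.11% and 0.0868%. With the set as a block, which compares the groups within each set and leaves 1 residual degree of freedom, 3 members passed as higher and 0 as lower, against 14.6% and 12.8% of all genes. The median log2 fold change of the members was -0.03 without and -0.02 with the block, and that of all genes tested was -0.04 in both fits.

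*Gimap7* encodes a GTPase that can act on other GIMAP proteins by pairing with them, and it showed the largest difference among the members. It was measured at 80.8 CPM in CD4+Lrig1+ and 49.3 CPM in CD4+Lrig1- cells of set 1, and at 164 and 97.0 CPM in set 2. The CD4+Lrig1+ library was the higher one within each set, but the groups overlapped, since the CD4+Lrig1- library of set 2 exceeded the CD4+Lrig1+ library of set 1. Its level was 63.7% higher in CD4+Lrig1+ cells in set 1 and 69.2% higher in set 2. The log2 ratio was 0.71 in set 1 (95% counting interval 0.64 to 0.78) and 0.76 in set 2 (0.71 to 0.81). These intervals are exact binomial ones and cover counting error only. The log2 fold change was 0.74 ± 0.56 (SE, n = 2 per group) without the block, with an edgeR adjusted p of 0.9998, and 0.74 ± 0.07 with the block, with an edgeR adjusted p of 3.49e-04. In the distribution of all genes, *Gimap7* stood at the percentile of 86.3 in set 1 and 87.1 in set 2.

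*Gimap5*, whose product is found on lysosomes and is needed for the survival of peripheral T cells, was the steadiest member. Its level was 100.3 CPM in CD4+Lrig1+ and 76.4 CPM in CD4+Lrig1- cells of set 1, and 97.0 and 75.0 CPM in set 2. It was the only one of the 8 whose groups did not overlap, a pattern that 14.3% of all genes tested had in this direction. The difference was 31.2% in set 1 and 29.4% in set 2. The log2 ratios were 0.39 (counting interval 0.33 to 0.45) and 0.37 (0.31 to 0.43). The log2 fold change was 0.38 ± 0.26 without the block, with an edgeR adjusted p of 0.9998, and 0.38 ± 0.07 with it, with an edgeR adjusted p of 0.00648.

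*Gimap1*, which is needed for the maintenance of mature T and B cells, was at 229 CPM in CD4+Lrig1+ and 175 CPM in CD4+Lrig1- cells of set 1, and at 281 and 241 CPM in set 2. The CD4+Lrig1+ library was higher in each set, while the groups overlapped between sets. The log2 ratios were 0.39 (counting interval 0.35 to 0.43) and 0.23 (0.19 to 0.26), so the intervals of the sets did not meet with TMM. Over all scalings run, the ratios ranged from 0.33 to 0.40 in set 1 and from 0.23 to 0.34 in set 2. The log2 fold change was 0.30 ± 0.36 without the block, with an edgeR adjusted p of 0.9998, and 0.31 ± 0.08 with it, with an edgeR adjusted p of 0.0306. In the GENCODE annotation a protein-coding locus on the same strand, Gm28053, overlaps *Gimap7*, *Gimap1* and *Gimap5* by 6016, 4742 and 6448 bases, which are the members that passed with the block. On the opposite strand, the transcript *Gimap1os* overlaps *Gimap1* by 2391 bases. The library kit keeps the strand, whether the counting used it is not given in the sources used here, and the part of these loci in the values was not tested.

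*Gimap3*, the relative of *Gimap5*, was at 1273 CPM in CD4+Lrig1+ and 1181 CPM in CD4+Lrig1- cells of set 1, and at 997 and 981 CPM in set 2. The CD4+Lrig1+ library was higher in both sets by small margins, and the groups overlapped. The log2 ratios were 0.11 (counting interval 0.09 to 0.12) and 0.02 (0.01 to 0.04), and with the block the log2 fold change was 0.07 ± 0.10 with an edgeR adjusted p of 0.692. Of the 50-base words in the *Gimap5* coding transcripts, 190 of 1904 (9.98%) were also in *Gimap3*, where they made up 7.52%, and 0 were shared between any other members. Reads of that length from these stretches cannot be assigned to either gene by their own sequence. The study sequenced both ends of each fragment, so a mate outside the stretches can assign some of them. Both values carry the uncertainty that remains. On a log2 scale of CPM, *Gimap5* stood against *Gimap3* at -3.67 in CD4+Lrig1+ and -3.95 in CD4+Lrig1- cells of set 1, and at -3.36 and -3.71 in set 2.

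*Gimap4* was at 596 CPM in CD4+Lrig1+ and 710 CPM in CD4+Lrig1- cells of set 1, and at 830 and 1037 CPM in set 2. The CD4+Lrig1- library was the higher one in each set, and the groups overlapped because both libraries of set 2 exceeded those of set 1. The level in CD4+Lrig1+ cells differed from that in CD4+Lrig1- cells by -16.1% in set 1 and -19.9% in set 2, log2 ratios of -0.25 and -0.32. With the block the log2 fold change was -0.29 ± 0.10, with an edgeR adjusted p of 0.0665.

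*Gimap6* ran close to *Gimap4*. It was at 484 and 565 CPM in set 1 and at 769 and 945 CPM in set 2, CD4+Lrig1+ first. The CD4+Lrig1- library was higher in both sets, and the groups overlapped. The log2 ratios were -0.22 and -0.30, and with the block the log2 fold change was -0.26 ± 0.09 with an edgeR adjusted p of 0.082. Among the members, *Gimap4* and *Gimap6* had the most alike patterns over the 4 libraries, with a Euclidean distance of 0.196 between their centred log2 CPM values, whereas *Gimap7* and *Gimap8* lay farthest apart at 2.11.

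*Gimap8* was at 429 CPM in CD4+Lrig1+ and 451 CPM in CD4+Lrig1- cells of set 1, and at 211 and 271 CPM in set 2. It was lower in CD4+Lrig1+ cells in both sets and, unlike *Gimap4* and *Gimap6*, lower in set 2 than in set 1. The log2 ratios were -0.07 (counting interval -0.10 to -0.05) and -0.36 (-0.39 to -0.32), and with the block the log2 fold change was -0.21 ± 0.10 with an edgeR adjusted p of 0.147. *Gimap9* was at 106 and 103 CPM in set 1 and at 152 and 179 CPM in set 2, CD4+Lrig1+ first, so the direction differed between sets and the groups overlapped. Its log2 ratios were 0.04 (counting interval -0.02 to 0.10) and -0.23, and with the block the log2 fold change was -0.10 ± 0.09 with an edgeR adjusted p of 0.460. In set 1 its ratio was below 0 under 3 of the other scalings, by DESeq2 size factors, TPM or T cell markers.

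The DESeq2 Wald test with the block, which passed 11.7% of all genes as higher and 12.5% as lower, called the same 3 members higher and also called *Gimap4* (adjusted p = 3.22e-06), *Gimap6* (adjusted p = 3.55e-05) and *Gimap8* (adjusted p = 0.0266) lower. The edgeR test with the block and DESeq2's size factors in place of TMM called *Gimap4* (adjusted p = 0.0233) and *Gimap6* (adjusted p = 0.0284) lower as well, so these calls changed with the scaling alone, and *Gimap8* was not called there (adjusted p = 0.0717). The difference between sets was often larger than that between groups: in 6 of the 8 members both changes from set 1 to set 2 were larger than both group ratios, as in 58.2% of all genes.

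**Figure D2:**
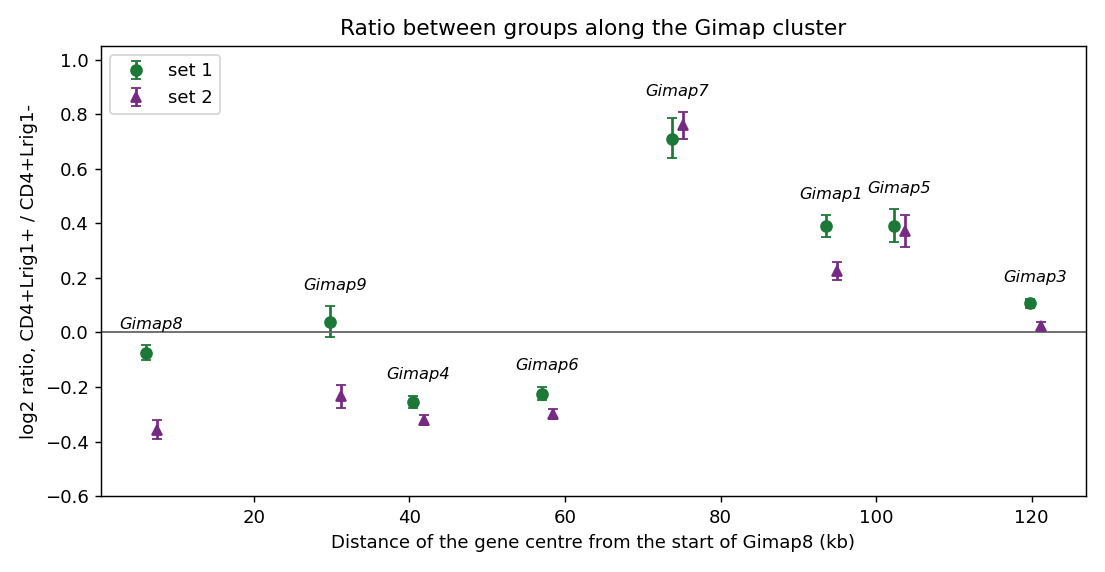
Log2 ratio between the groups (CD4+Lrig1+ divided by CD4+Lrig1-, vertical axis) against the distance of each gene's centre from the start of *Gimap8* in kb; circles are set 1, triangles set 2, and bars the 95% counting interval. *Gimap7*, *Gimap1* and *Gimap5* lie above 0 in both sets and *Gimap8*, *Gimap4* and *Gimap6* below it.

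The direction followed the position in the cluster, a pattern noticed after the values were seen and not tested. The 4 genes at the *Gimap3* end, *Gimap7*, *Gimap1*, *Gimap5* and *Gimap3*, were the 4 that were higher in both sets, and the 3 that were lower in both sets, with *Gimap9*, lie at the *Gimap8* end. *Gimap7*, *Gimap1*, *Gimap5* and *Gimap3* together took 51.1% of the family's counts in CD4+Lrig1+ and 44.8% in CD4+Lrig1- cells of set 1, and 44.0% and 36.4% in set 2. These 4 genes were summed because each was higher in both sets, so the direction of this share is fixed by the choice and is no separate result. Ratios between members of one library do not depend on how libraries are scaled. The log2 ratio of *Gimap7* to *Gimap4* in CPM was -2.88 and -3.85 in set 1 and -2.34 and -3.42 in set 2, CD4+Lrig1+ first, so the groups did not overlap in this ratio. That of *Gimap1* to *Gimap6* was -1.08 and -1.69 in set 1 and -1.45 and -1.97 in set 2, again with no overlap. In a further pair across the ends, *Gimap3* to *Gimap4*, the log2 ratio was 1.10 and 0.73 in set 1 and 0.26 and -0.08 in set 2. CD4+Lrig1+ was again the higher within each set, but there the groups overlapped. The pairs without overlap were picked after their values were seen.

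**Figure D3:**
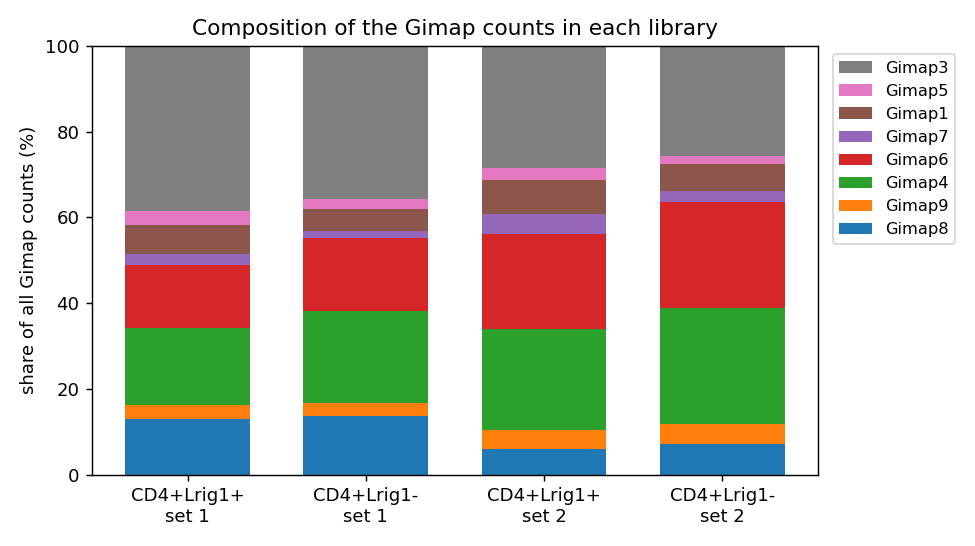
Share of all *Gimap* counts (%) taken by each gene in each of the 4 libraries, stacked from *Gimap8* at the bottom to *Gimap3* at the top. The upper 4 genes take 51.1% and 44.8% in set 1 and 44.0% and 36.4% in set 2, CD4+Lrig1+ first.

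**Figure D4:**
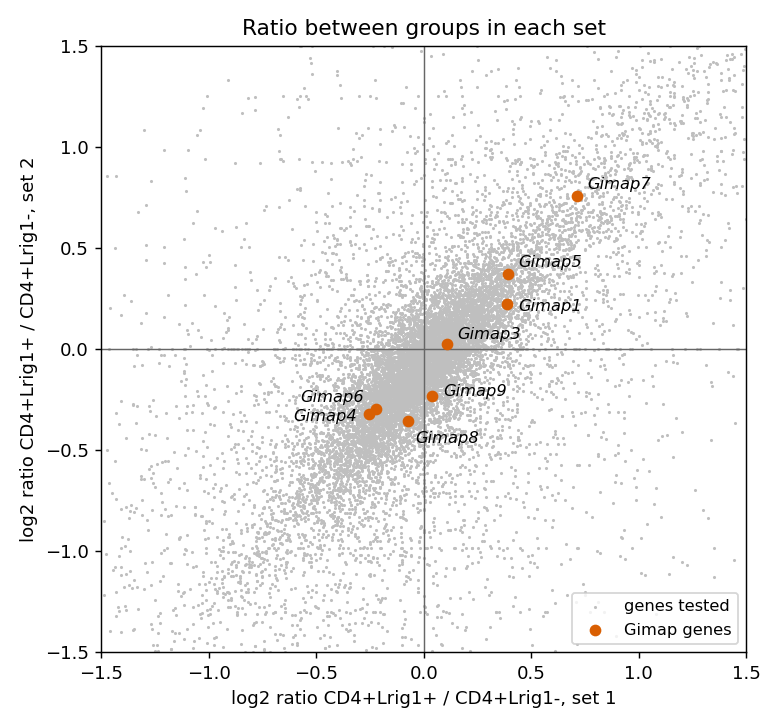
Log2 ratio between the groups (CD4+Lrig1+ divided by CD4+Lrig1-) in set 1 (horizontal axis) and set 2 (vertical axis); grey points are the 13871 of 16123 genes tested within ±1.5 on both axes and orange points the *Gimap* genes. *Gimap7* lies at 0.71 and 0.76, and the other members lie within 0.40 of 0 on both axes.

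Genes around the cluster had their own directions. Before *Gimap8*, the zinc finger gene *Repin1* was at 4.52 and 3.32 CPM in set 1 and at 4.98 and 2.93 CPM in set 2, CD4+Lrig1+ first, with an edgeR adjusted p of 0.0684 with the block. *Zfp775*, another zinc finger gene and the nearest before *Gimap8*, had log2 ratios of -0.16 and -0.20 with an edgeR adjusted p of 0.304 with the block, and *Gm5111* had 0 counts. Beyond *Gimap3*, the membrane protein genes *Tmem176b* and *Tmem176a* were lower in CD4+Lrig1+ cells with the block (edgeR adjusted p of 0.00652 and 0.00765), with log2 ratios of -1.45 and -0.71 for *Tmem176b* and -1.20 and -0.91 for *Tmem176a*, and *Gm7932* had at most 2 counts in a library. *Tmem176b* and *Tmem176a* thus had the opposite direction to the members at the *Gimap3* end. Both were at low levels, 3.54 to 14.3 CPM for *Tmem176b* and 2.08 to 6.80 CPM for *Tmem176a*, and *Tmem176a* lies within the span of *Tmem176b*. Inside the cluster, *Gm44262* had 0 counts and *Gm46958* at most 7 in a library.

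Most members were measured through 1 transcript. *Gimap3*, *Gimap5*, *Gimap6* and *Gimap7* had 1 listed transcript each. For *Gimap1*, NM_008376 took 93.7% to 95.7% of the counts, and for *Gimap4*, NM_174990 took 92.0% to 94.9%. *Gimap8* had 4 transcripts and its make-up differed between libraries. NM_001286629 took 5.90% of its counts in CD4+Lrig1+ and 3.85% in CD4+Lrig1- cells of set 1, and 21.3% and 6.19% in set 2, so the share was higher in CD4+Lrig1+ cells in both sets. *Gimap9* had 3 transcripts, and most of its counts lay on a pair of non-coding records, XR_868861 and XR_868862. Its coding transcript NM_174960 took 25.04% and 28.8% of the counts in set 1 and 31.2% and 32.6% in set 2, CD4+Lrig1+ first, and had log2 ratios of -0.16 and -0.29, below 0 in both sets. XR_868861 had log2 ratios of -0.01 and 0.17. The share of XR_868862 was 13.3% and 7.47% in set 1 but 14.3% and 26.1% in set 2, opposite directions. Counts of transcripts that share exons are estimates, and these shares have no test.

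Companion lists were set beside the family, and their genes passed or failed in the edgeR fit with the block (without it 0 genes of any list passed). In that fit 14.6% of all genes were higher and 12.8% lower, the background for each count that follows. Of 17 genes of the naive and quiescent T cell state, with which *Gimap* expression is associated, 12 were lower in CD4+Lrig1+ cells and 0 higher, with a median log2 fold change of -0.54. *Lef1*, a transcription factor of naive T cells, was at 282 and 619 CPM in set 1 and 243 and 760 CPM in set 2, CD4+Lrig1+ first (edgeR adjusted p = 3.56e-04). *Satb1*, a chromatin organizer, was at 355 and 927 CPM and at 226 and 796 CPM (edgeR adjusted p = 1.52e-04). *Tcf7*, a partner of *Lef1*, was at 1094 and 1713 CPM and at 1306 and 2218 CPM (edgeR adjusted p = 0.00363). All 3 were lower in both CD4+Lrig1+ libraries than in either CD4+Lrig1- library, a pattern that 11.8% of all genes tested had. It was seen in 0 of the 8 *Gimap* members, which is near that share and does not set the family apart from other genes. *Lef1* and *Satb1* were named because their log2 ratios were at least 1 in size, so the size of their difference is no separate result. The members' median log2 fold change was -0.03, and 0 of 8 passed as lower in the edgeR fit with TMM and the block, 2 with DESeq2's size factors in their place and 3 in the DESeq2 Wald test with the block.

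The Bcl2 family governs apoptosis at the mitochondrion. Of its 12 genes listed 5 were higher and 1 was lower in CD4+Lrig1+ cells, with a median log2 fold change of 0.13, beside 14.6% and 12.8% of all genes. *Bcl2l1*, which encodes the survival protein Bcl-xL, was at 44.9 and 22.1 CPM in set 1 and 61.8 and 24.9 CPM in set 2, CD4+Lrig1+ first (edgeR adjusted p = 2.32e-04). *Bcl2* itself, also a survival gene, was lower with log2 ratios of -0.39 and -0.59 (edgeR adjusted p = 0.00524). *Mcl1* had log2 ratios of -0.12 and -0.14 and *Bcl2l11*, which encodes the death activator Bim, of -0.15 and -0.23, and neither passed.

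Of 12 autophagy genes 3 were higher and 0 lower, with a median log2 fold change of 0.07, against the same background. *Gabarapl1*, an autophagosome membrane gene, was at 14.9 and 2.61 CPM in set 1 and 24.8 and 4.85 CPM in set 2, CD4+Lrig1+ first (edgeR adjusted p = 2.97e-05). It was named because its log2 ratios were at least 1 in size. Its relative *Gabarap* had log2 ratios of 0.31 and 0.25 (edgeR adjusted p = 0.0323). A further relative, *Gabarapl2*, had log2 ratios of 0.06 and -0.11 and did not pass (edgeR adjusted p = 0.824). *Sqstm1* and *Lamp1*, an autophagy receptor and a lysosomal membrane protein gene, had log2 ratios of 0.10 and 0.04 and of 0.33 and 0.12 and did not pass. Of 14 other immunity-related GTPase genes (IRG and GBP families), 6 were higher and 2 lower, with a median log2 fold change of -0.0027, against the same background. *Gbp3* was at 59.0 and 12.4 CPM in set 1 and 70.2 and 20.2 CPM in set 2 (edgeR adjusted p = 5.20e-05) and *Gbp5* at 62.4 and 23.7 CPM and 57.4 and 24.98 CPM (edgeR adjusted p = 1.03e-04), both interferon-inducible GTPases. Their log2 ratios were 2.24 and 1.80 for *Gbp3* and 1.40 and 1.20 for *Gbp5*, larger than that of any *Gimap* member. Both genes were named because these ratios were at least 1 in size, so this comparison is no separate result. *Igtp*, *Gbp4* and *Gbp9* did not pass.

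**Figure D5:**
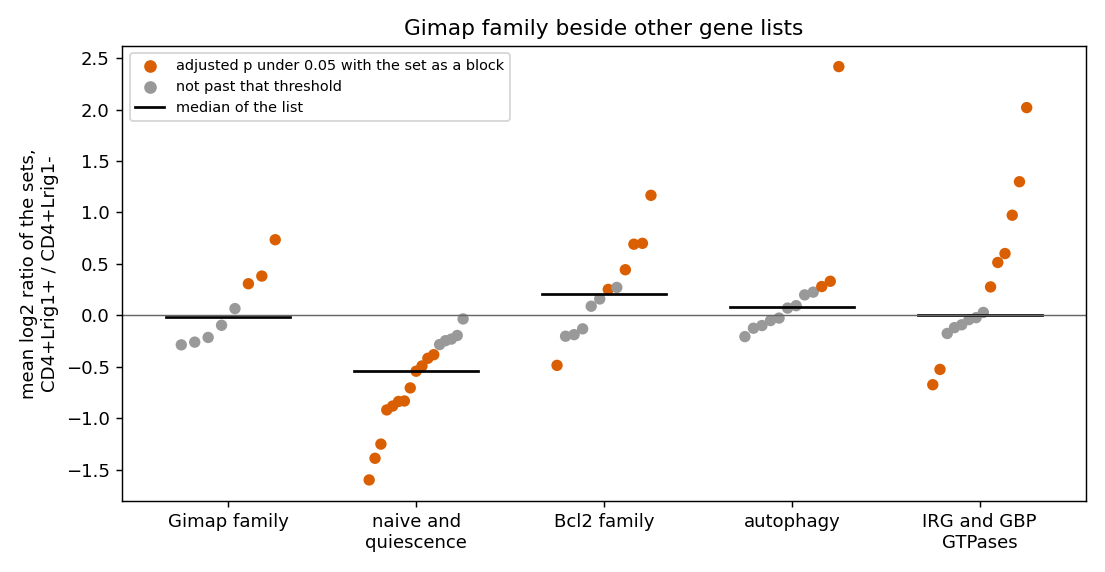
Mean of the log2 ratios of both sets, CD4+Lrig1+ over CD4+Lrig1-, for each gene of the *Gimap* family and 4 other lists; orange marks an adjusted p under 0.05 with the block, and the line is the list's median. Of the *Gimap* genes 3 are orange and above 0, and of the naive and quiescence genes 12 are orange and below 0.

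Of the marker lists for other cells, again beside 14.6% of all genes higher and 12.8% lower, those of B cells had 0 genes higher and 1 lower of 8, NK cells 1 and 4 of 6, CD8 T cells 0 and 2 of 2, myeloid cells 1 and 2 of 8, endothelium 0 and 2 of 3 tested, and erythroid cells and platelets 0 and 0 of 4 tested. *Emcn* was at 0 in every library. Of the T cell markers 1 of 8 was higher and 0 lower, and of the Treg markers 5 of 5 were higher.

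By Euclidean distance of centred log2 CPM over the 4 libraries, among 4256 genes with a mean of at least 50 CPM, the genes most like the median of the *Gimap* members included *Puf60*, *Slc9a3r1*, *Phc2* and *Dcaf11*. Their distances were 0.0083 to 0.028, against a median of 0.763 over those genes. The members themselves lay up to 2.11 apart, so the median is not a pattern that they share. Closeness to it does not show closeness to any member.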

How the data were processed

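RNA of CD4+ T cells sorted from spleen by surface Lrig1 was sequenced from a stranded mRNA library kit. Per the submitters' processing notes and the study's methods, the authors trimmed reads with Trimmomatic 0.38, mapped them with HISAT2 2.1.0 and assembled them with StringTie 2.1.3b, on GRCm38; Bowtie2 2.3.4.1 is also named. The authors deposited estimated counts, not normalized, for 129299 transcripts. The deposited FPKM and TPM values are the authors' own, scaled by length and library. Of the per-sample columns, 6 in a further table were not used here, because their names do not give the group. The other 4 libraries hold no replicate numbers, and the set is the table that holds a library.

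Counts were summed per gene, filtered with filterByExpr (16123 genes kept, all 8 members among them), normalized by TMM and tested with the quasi-likelihood test of edgeR 4.0.16 in R 4.3.3, with Benjamini-Hochberg adjustment over all genes and a threshold of 0.05. The same fit with the set as a block stands beside it: deviations between sets correlated at 0.883 between the groups. Log2 ratios used a prior count of 2. Alternatives used DESeq2 1.42.0, limma 3.58.1, other filters, scalings and left-out libraries. On simulated counts the procedure was checked for the direction and size of the changes put in. How often unchanged genes pass with the block was not part of that check. Of 45777 genes, 45679 matched RefSeq by gene ID. The members, lists and motifs were chosen with earlier results of these data known. Named genes were all members, the 3 protein-coding genes on each side of the cluster and those inside it, the 3 most abundant of each companion list and those with log2 ratios of at least 1 in size with one sign in both sets, *Lrig1*, *Foxp3*, and the 5 nearest patterns, of which 1 is not reported here. *Gabarapl2* was named in addition, beside its relatives. For marker lists only sums and counts are given. Python 3.11.15 read the files.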

Additional observations from a re-analysis of the deposited data

How the results depend on the processing

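The calls turned on the block for the set. Without it, the edgeR quasi-likelihood test passed 0 genes and 0 members; the DESeq2 Wald test passed 260 genes as higher and 50 as lower, and edgeR's exact test 179 and 14, again with 0 members. With the replicate block, meaning the set, 2358 genes were higher and 2056 lower in the edgeR test, with 3 members higher; limma on log2(FPKM + 1) with the block gave 1911 and 1016 genes and 3 members higher. The DESeq2 Wald test with the block gave 1848 and 1969 genes, 3 members higher and 3 lower, and edgeR with DESeq2 size factors and the block 2208 and 2388 genes, 3 members higher and 2 lower; these 2 and the other scalings of the ratios were added after seeing the data. Of the 3 lower calls, those of *Gimap4* and *Gimap6* thus came with the scaling alone; for *Gimap8* the cause was not tested. With transcripts in place of genes the members' median log2 fold change was -0.20.

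Leaving out 1 library at a time, in the fit without the block, assumes that the lone library varies like the other group. It also leaves 1 set with a single library, so the difference between sets enters the log2 fold change. It passed 1 to 88 genes as higher, 0 to 2 as lower and 0 members, and the members' median lay between 0.11 and 0.24. The log2 ratio of the family sums lay between -0.17 and 0.038. The log2 fold change ranged from -0.091 to 0.25 for *Gimap3*, from -0.56 to 0.0101 for *Gimap4*, from -0.65 to 0.15 for *Gimap6*, from -0.75 to 0.28 for *Gimap8* and from -0.43 to 0.33 for *Gimap9*, each changing sign. *Gimap7* (0.14 to 1.32), *Gimap1* (0.13 to 0.55) and *Gimap5* (0.36 to 0.44) kept their direction under every alternative run. In set 1 the log2 ratio of *Gimap9* was -0.0175 by DESeq2 size factors, -0.0089 by TPM and -0.0044 by T cell markers, against 0.04. The widest counting interval of a member's ratio spanned 0.15 on the log2 scale, for counting error only.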
